A study of Mus musculus with 3 samples.

Results

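The cells described here were tumour myeloid cells outside the type 1 conventional dendritic cells (cDC1s) that carried a strong interferon signature. They were 268 of 30209 cell barcodes in a single-cell RNA sequencing series of mouse tumour dendritic cells. Members were chosen by their own counts: the unique molecular identifiers (UMIs, each 1 captured RNA molecule) of Ifit1, Ifit2, Ifit3 and Rsad2 had to sum to 10 or more. A barcode also needed 1000 genes or more, a mitochondrial share under 10%, no entry in the deposited table of cDC1s, and 1 or more UMIs of the myeloid genes Itgam, Sirpa and Cd209a together. Barcodes with 3 or more UMIs of Ccr7, which marks migratory dendritic cells, were left out. So were barcodes with any UMI of Xcr1 (cDC1s), Ncr1 or Klrb1c (NK cells), Cd3e (T cells) or Mki67 (cycling cells). The 9727 barcodes that passed every step other than the interferon threshold are called gated myeloid cells. Members are called ISG-high, for interferon-stimulated genes, and the other 9459 gated myeloid cells ISG-low. Contrasts of ISG-high with ISG-low cells follow from the way the members were selected on these UMIs, so they are given as a description, with no test.

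The study described the states and positions of cDC1s in tumours. Knockout mice with modified cross-presentation were added so that the states could be compared between genotypes. Secreted gelsolin (sGSN) is a plasma protein that severs actin filaments and blocks their recognition by the cDC1 receptor DNGR-1, the product of Clec9a. Mice bore MCA205 LA-OVA tumours, a transplantable fibrosarcoma that expresses ovalbumin, which were harvested on day 5. From CD45-positive, lineage-negative cells that carried CD11c and MHC class II and lacked CD88, pre-cDCs, cDC1s and cDC2s were sorted and mixed in set proportions. There were 3 groups, each a single library from a single pool. These were 37 wild-type mice (WT), 31 mice without secreted gelsolin (sGSN-/-), and 27 mice without both secreted gelsolin and DNGR-1 (sGSN-/-Clec9a-/-). All mice were 6 to 20 weeks old, and tumours were digested 5 at a time. With 1 library per genotype, genotype and library cannot be told apart, and no test between genotypes was made. The libraries held 12763 barcodes and 176578136 UMIs (WT), 8173 barcodes and 109270958 UMIs (sGSN-/-), and 9273 barcodes and 113411930 UMIs (sGSN-/-Clec9a-/-). Their median depths were 13210, 11954 and 10649 UMIs per barcode. No measure of interferon itself was part of the files.

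Type I interferons bind the receptor formed by Ifnar1 and Ifnar2, and type III interferons act through a separate receptor; both activate transcription factors that join IRF9 and bind interferon-stimulated response elements (ISREs) in gene promoters. Interferon gamma binds Ifngr1 and Ifngr2 and acts through gamma-activated sites (GAS), which drive genes such as Cxcl9 and the guanylate-binding proteins. In tumours, the products of these genes include chemokines that attract T and NK cells through the receptor CXCR3, and type I interferon sensed by dendritic cells is known to aid the priming of cytotoxic T cells.

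The members carried myeloid genes in every library. The 6 general myeloid markers summed to 11248 CPM (UMIs of a gene per 1000000 UMIs of a sum of cells) in WT, 12083 in sGSN-/- and 10747 in sGSN-/-Clec9a-/- members, and averaged 11360 ± 675 (SD, n = 3 libraries) against 11413 ± 372 in ISG-low cells. Itgam was detected in 208 members, Sirpa in 186, Cd209a in 169, and all 3 in 85, while 16 members (5.97%) passed the myeloid step on 1 UMI. The label names no myeloid type, and the markers showed a mixture. The 7 cDC2 markers summed to 1375 CPM, with Mgl2 the most abundant, the 8 macrophage markers to 3235 CPM, led by the complement gene C1qb, and the 6 monocyte markers to 1926 CPM, led by Plac8. Of the cDC2 markers, Cd209a (367 CPM), Itgam (231) and Sirpa (115) were the genes of the myeloid step, so part of that sum follows from the selection. The corresponding sums in ISG-low cells, which passed the same step, were 1453, 3175 and 1417 CPM. In cDC1s that reached the same interferon threshold, with no myeloid step, they were 189, 38.8 and 1375 CPM. Plac8 was at 1030 CPM in those cDC1s and 755 CPM in members, so it was not particular to members.

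Some markers of other cell types were absent from the members. All 3 mast cell and basophil markers were at 0, as were S100a8, S100a9, Cxcr2 and Retnlg among 5 neutrophil markers, Cd79a among 4 B cell markers, and Cd3g among 5 T cell markers. Cd3e, Ncr1, Klrb1c, Xcr1 and Mki67 were at 0 by the rule. The 6 cDC1 markers summed to 329 CPM in members, of which Naaa made up 211, and to 240 CPM in ISG-low cells. In cDC1s with 10 or more of the same UMIs they summed to 2266 CPM. Plasmacytoid cell markers summed to 221 CPM, led by the transcription factor Tcf4, and 18 of 268 members (6.72%) held a UMI of the plasmacytoid gene Siglech, against 10.9% of ISG-low cells and 1.08% of barcodes with an NK gene UMI and no myeloid UMI. Sums of the other lists were 728 CPM for non-classical monocytes, of which Nr4a1 made up 569, 30.6 for endothelium, 27.3 for activated cDCs, 19.3 for NK cells, 10.5 for cycling cells, 5.23 for T cells, 3.85 for B cells, 2.74 for neutrophils and 0.137 for stroma. In ISG-low cells these sums were 641, 18.4, 42.0, 36.2, 13.4, 7.65, 5.38, 2.96 and 0.719 CPM, in the same order. The macrophage genes were present although the sort had removed cells with CD88, and how such cells passed it was not tested.

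Libraries shared few barcodes: 26 between WT and sGSN-/-, 28 between WT and sGSN-/-Clec9a-/-, and 27 between the knockout libraries, and no barcode was a member in more than 1 library. The barcode of 1 WT member also occurred in sGSN-/-, and those of 2 sGSN-/- members in sGSN-/-Clec9a-/-. Among the barcodes with the top 6% of doublet scores in each library were 10 of 268 members (3.73%), 5 in WT, 5 in sGSN-/- and 0 in sGSN-/-Clec9a-/-, against 2.12% of ISG-low cells. The genotype of the sGSN-/-Clec9a-/- library could be read from Clec9a, which was found in 10 of 148 WT members (6.76%), 10 of 59 sGSN-/- members (16.9%) and 0 of 61 sGSN-/-Clec9a-/- members (up to 5.87%). Barcodes with an NK gene, which should lack Clec9a, held a UMI of it in 7.30% (WT), 8.09% (sGSN-/-) and 0.127% (sGSN-/-Clec9a-/-), at median depths of 10177, 8740 and 7540 UMIs against 14280, 17389 and 12056 in members. The share in WT members was no higher than that in WT NK gene barcodes, which were shallower. In sGSN-/- it was higher than in NK gene barcodes both in members and in ISG-low cells (14.2%).

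Members were 148 of 5049 gated myeloid cells in WT (2.93%, exact Clopper-Pearson 95% interval 2.48 to 3.43), 59 of 1911 in sGSN-/- (3.09%, 2.36 to 3.96) and 61 of 2767 in sGSN-/-Clec9a-/- (2.20%, 1.69 to 2.82). These intervals cover counting error only, and they overlapped between the 3 libraries. Of cDC1s from the deposited table that passed the gene, mitochondrial, Ccr7, NK, T cell and cycling steps, with no Xcr1 or myeloid step, 42 of 1996 (2.10%), 45 of 1363 (3.30%) and 39 of 1550 (2.52%) reached the threshold, in the same order of libraries. The highest share among the classes counted was that of myeloid cells with 3 or more Ccr7 UMIs, 17 of 170 (10%, 5.93 to 15.5). Barcodes with an NK gene reached the threshold in 24 of 2584 (0.929%, 0.596 to 1.38). Depth differed between these classes, with a median of 12621 UMIs in gated myeloid cells and 8722 in NK gene barcodes. At an equal depth of 3900 UMIs per cell the shares were 0.974% and 0.262%, and 0.651% in cDC1s.

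**Figure D1:**
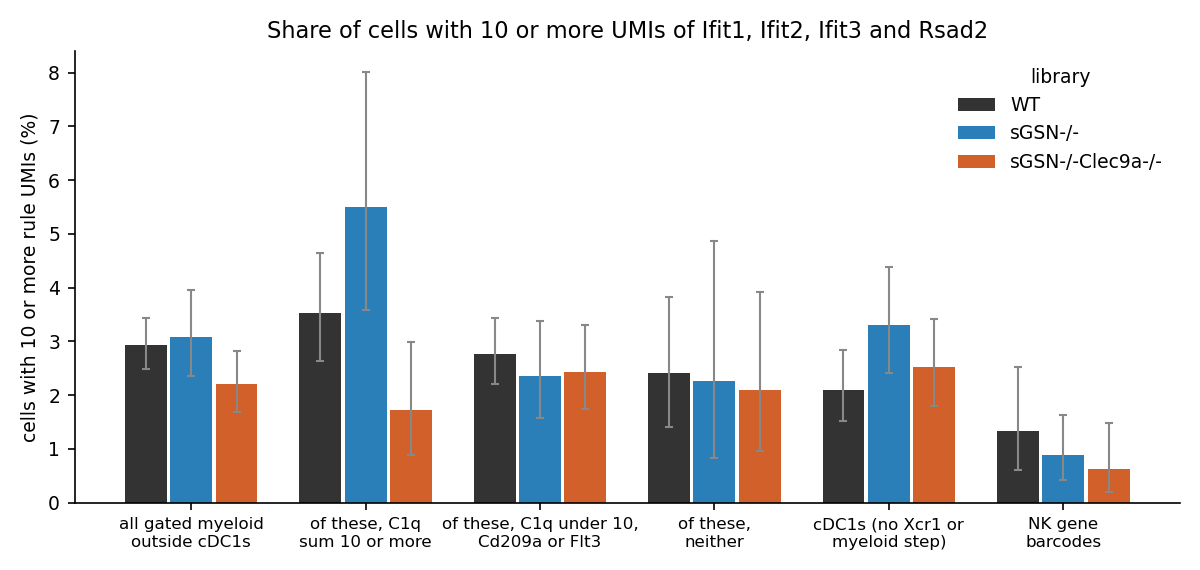
Share of cells (%) with 10 or more UMIs of Ifit1, Ifit2, Ifit3 and Rsad2, by cell class and library; bars start at 0 and error bars are exact 95% intervals for counting error. The share in gated myeloid cells was 2.93% in WT, 3.09% in sGSN-/- and 2.20% in sGSN-/-Clec9a-/-.

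The members fell into groups by complement and dendritic cell genes. With 10 or more UMIs of C1qa, C1qb and C1qc, genes of tissue macrophages, 87 members (32.5%, 26.9 to 38.4) were called C1q cells. A further 149 (55.6%) had fewer and held a UMI of the lectin gene Cd209a or of Flt3, the receptor of the dendritic cell growth factor, and 32 (11.9%) had neither. Few members sat near the C1q limit: 4 had 5 to 9 of these UMIs, 4 had 10 to 14, and 83 had 15 or more. Of the 87 C1q members, 38 also held a Cd209a or Flt3 UMI, and 8 (9.20%) were among the top doublet scores, against 2 of 149 Cd209a/Flt3 members (1.34%). C1q members were also deeper, with a median of 17416 against 13380 UMIs. Among gated C1q cells, members were 3.54% in WT, 5.49% in sGSN-/- and 1.72% in sGSN-/-Clec9a-/-. The interval in sGSN-/- (3.59 to 8.0) did not reach that in sGSN-/-Clec9a-/- (0.894 to 2.99), and both overlapped that in WT (2.64 to 4.64). At an equal depth of 3900 UMIs per cell the shares of C1q cells were 1.35% (0.815 to 2.10), 1.11% (0.363 to 2.58) and 0.440% (0.0908 to 1.28), and all 3 intervals overlapped. Of the C1q members in sGSN-/-, 5 of 25 (20%) were among the top doublet scores. In Cd209a/Flt3 cells the shares at full depth were 2.77%, 2.35% and 2.44%.

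Of the 4 genes that chose the members, Rsad2, which encodes the antiviral enzyme viperin, gave 32.2% of the UMIs. Ifit3 gave 28.4%, Ifit1 22.2% and Ifit2 17.2%; these encode proteins that bind viral or foreign RNA and their partners. Each was found in most members, from 88.1% for Ifit1 to 95.1% for Rsad2, against 3.73% to 6.51% of ISG-low cells. The median member held 22 of these UMIs. Just inside and just outside the threshold, levels differed by gene. The 37 members with 10 or 11 of these UMIs had 890 CPM of Isg15, a ubiquitin-like modifier, and 391 CPM of Irf7, a transcription factor that amplifies interferon production. The 27 ISG-low cells with 8 or 9 had 959 and 409 CPM. Cxcl10, which encodes a CXCR3 ligand, was at 186 CPM just inside and 252 CPM just outside, Cxcl9, which encodes another, at 282 and 487 CPM, and Ifi205, a DNA-binding protein, at 122 and 216 CPM. Usp18, a feedback gene, was at 143 and 120 CPM, the GTPase gene Gbp2 at 68.1 and 43.2 CPM, and the chemokine gene Ccl5 at 326 and 79.6 CPM.

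Above the threshold, 7 of 8 other genes followed were higher in each successive bin of the rule UMIs. Isg15 was at 938 CPM in the 118 members with 10 to 19, 1635 CPM in the 94 with 20 to 49 and 2491 CPM in the 56 with 50 or more, against 47.3 CPM in the 8150 gated cells with 0. The corresponding values of Irf7 were 488, 647 and 1067 CPM, against 41.7. Cxcl10 spanned the widest range of these genes, with 383, 1003 and 5260 CPM against 51.3. Cxcl9, which interferon gamma induces, had 108, 175 and 544 CPM against 22.2, but few cells set these values, as the 487 and 282 CPM on the 2 sides of the threshold also show: the 10% of members with the most held 98.6% of its UMIs. Ccl5 was the exception, with 138, 65.0 and 616 CPM against 43.6. Median depth moved along with the bins, from 13537 to 15003 and 16548 UMIs. The threshold was on UMIs and not on a share, and the part of depth in these values was not tested.

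**Figure D2:**
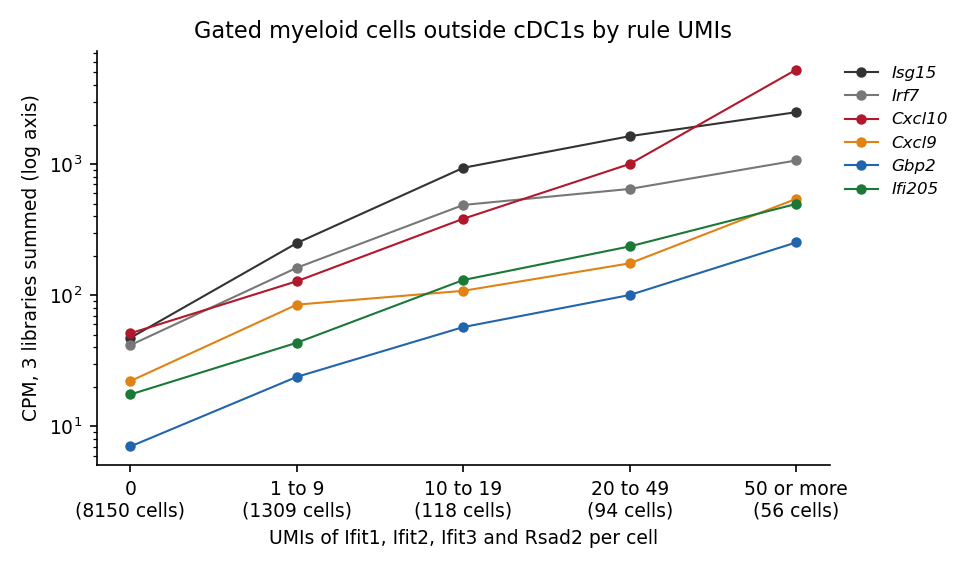
Level (CPM, log axis) of Isg15, Irf7, Cxcl10, Cxcl9, Gbp2 and Ifi205 in gated myeloid cells by the number of UMIs of the 4 rule genes (0, 1 to 9, 10 to 19, 20 to 49, 50 or more; 8150, 1309, 118, 94 and 56 cells). Each point is 1 sum over all cells of a bin; Cxcl10 had 383 CPM at 10 to 19 and 5260 CPM at 50 or more.

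Beyond the rule genes, few genes differed by 2-fold or more between members and ISG-low cells. Of 7119 genes with 10 CPM or more in either group, 236 (3.32%) were 2-fold or more higher in members and 33 (0.464%) 2-fold or more lower, and 1144 were higher and 2777 lower in members of every library. Since the rule used this contrast, these counts are a description. The median log2 ratio of all 7119 genes was -0.11, and 2305 were above 0. Genes on 11 lists of interferon and immune functions had a median of 1.51. Of 131 listed genes, 128 were found in the files; Mx1, Mx2 and Cxcl11 were not.

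All 24 measured antiviral effectors were higher in members in every library, 22 of them 2-fold or more, with a median log2 ratio of 3.02. Isg15 had 1757 CPM in WT, 1266 in sGSN-/- and 1289 in sGSN-/-Clec9a-/- members, and 79.0, 76.9 and 82.6 in ISG-low cells. The WT members were the highest, and all 3 libraries of members lay far above all 3 of ISG-low cells; the means were 1438 ± 277 and 79.5 ± 2.87 CPM, an 18.1-fold difference. Cmpk2, a mitochondrial nucleotide kinase encoded next to Rsad2, was at 106 ± 19.4 against 2.20 ± 0.285 CPM (48.1-fold). Oasl1, a member of the oligoadenylate synthetase family that restrains Irf7 translation, was 28.5-fold higher, and Oas3, a synthetase that senses double-stranded RNA, 11.2-fold. The smallest ratios were those of Bst2, the membrane tether tetherin (1.74-fold), and Ifitm3, which blocks viral entry (1.80-fold); both were abundant in ISG-low cells as well, at 468 and 1969 CPM.

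Of 13 sensors and adaptors of nucleic acids, 10 had 10 CPM or more in either group. All 10 had higher means in members, 9 of them in every library, and 7 were 2-fold or more higher (median log2 ratio 2.21). Ddx58, which encodes the RNA sensor RIG-I, was at 158, 159 and 133 CPM in WT, sGSN-/- and sGSN-/-Clec9a-/- members and at 18.4, 17.9 and 19.8 CPM in ISG-low cells. Ifih1, the RNA sensor MDA5, was at 162, 134 and 136 CPM against 20.8, 21.2 and 19.7. Neither gene had overlapping libraries between the groups, and the folds were 8.03 and 7.01. Ifi204, a DNA-binding protein of the interferon-inducible p200 family, was 13-fold higher. Tmem173, the adaptor STING, was not among the genes that set members apart, at 74.2 ± 3.39 CPM against 72.7 ± 5.82 CPM.

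Of 12 transcription factors of the interferon response, 11 had a higher mean in members, 9 in every library and 5 by 2-fold or more. Irf7 was at 758, 604 and 548 CPM in members and 57.5, 62.2 and 66.6 CPM in ISG-low cells (10.2-fold). Stat2, a subunit of the ISRE-binding complex, had 134, 104 and 113 CPM against 22.8, 24.6 and 22.8 (4.99-fold). Both genes are themselves interferon-induced, and their member libraries all lay above the ISG-low libraries. Irf9, the DNA-binding subunit of that complex, was at 91.6 ± 29.8 against 53.2 ± 2.74 CPM, and Irf1, an early target of interferon gamma, at 125 ± 3.63 against 68.2 ± 7.61 CPM. Irf3, the factor activated by RNA and DNA sensors before any interferon is made, was lower in all 3 libraries (16.1 ± 2.81 against 22.1 ± 0.388 CPM). Irf8, a factor of the cDC1 lineage, was at 139 ± 36.8 against 131 ± 28.1 CPM, and at 1218 CPM in cDC1s under the threshold.

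Of 4 ligands and receptors of interferon with 10 CPM or more, 3 were lower in members of every library, as were 2777 of all 7119 genes, and none differed by 2-fold. Ifnar1 was at 86.3 ± 8.49 CPM in members and 86.1 ± 4.21 in ISG-low cells, and Ifnar2 at 168 ± 18.0 and 189 ± 3.36. Ifngr1 was lower in members of every library, at 325, 313 and 257 CPM against 446, 432 and 399, with no overlap between the groups. Ifng was at 1.26 and 1.54 CPM. Ifnb1, the gene of interferon beta, was found in 13 barcodes of the whole series. Of these, 1 was a member, from the sGSN-/-Clec9a-/- library, with 4 Ifnb1 UMIs and 75 rule UMIs, and 0 of the 126 cDC1s that passed their steps and the threshold held any (up to 2.89%). Of the other 12 barcodes, 4 had 17 to 157 rule UMIs, among them a deposited cDC1 from sGSN-/- that did not pass those steps (8 Ifnb1 and 62 rule UMIs). The other 8 had 0 to 6 rule UMIs, among them a deposited cDC1 from WT (6 Ifnb1 UMIs and 0 rule UMIs) and the barcode with the most Ifnb1 (20 UMIs and 6 rule UMIs).

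Some feedback genes were higher in members. Usp18, which encodes the enzyme that removes ISG15 and blocks the type I interferon receptor, was at 287, 265 and 269 CPM in members and 14.8, 16.4 and 17.9 CPM in ISG-low cells. No library was close to the other group, and the fold was 16.7. Socs1, an inhibitor of JAK kinases, was at 51.1 ± 7.63 against 13.2 ± 1.56 CPM. Socs3, which acts on other cytokine receptors, was at 152 ± 22.7 against 160 ± 9.84 CPM. Il1rn, the interleukin 1 receptor antagonist, varied between member libraries, with 97.2, 45.1 and 136 CPM against 71.7, 54.6 and 68.3, so the groups overlapped.

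Genes listed as targets of interferon gamma were high in members as well, and which interferon, if any, acted on them was not tested. Of 14 GTPases of the guanylate-binding and immunity-related families, which act on intracellular pathogens, 12 had 10 CPM or more in either group, and all 12 were 2-fold or more higher and higher in every library, with a median log2 ratio of 3.03. Gbp2 was at 132, 80.6 and 119 CPM against 8.98, 11 and 10.2 (11-fold). Ifi47 had 302, 229 and 225 CPM against 21.9, 25.6 and 26.5 (10.2-fold). For both, the lowest member library was above the highest ISG-low library, and WT members were the highest. Gbp5, which promotes inflammasome assembly, was at 68.4 ± 8.78 against 4.84 ± 1.08 CPM, and Irgm1, a regulator of autophagy, at 156 ± 5.43 against 21.9 ± 2.27 CPM.

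Chemokine genes varied. Of 13 with 10 CPM or more in either group, 9 had a higher mean in members, 7 in every library, and 5 were 2-fold or more higher, with a median log2 ratio of 0.58. Cxcl10 was at 1705, 1584 and 1781 CPM in members of WT, sGSN-/- and sGSN-/-Clec9a-/- mice, and at 57.3, 76.1 and 67.0 CPM in ISG-low cells. Its 3 member libraries were close together, at 1690 ± 99.4 CPM, 25.3-fold above the ISG-low mean of 66.8 ± 9.41 CPM. Cxcl9 was at 262, 177 and 209 CPM against 28.7, 47.9 and 27.6 (6.21-fold), but 1 member of each library held 287 of 637, 119 of 204 and 174 of 201 of these UMIs, so its levels rested on few cells. Ccl4, which attracts monocytes and T cells, was at 979, 1179 and 1681 CPM against 470, 573 and 494, and members were higher in each library (2.50-fold). Ccl5, which attracts T cells, reached 304 CPM in WT and 173 CPM in sGSN-/-Clec9a-/- members but 73.7 CPM in sGSN-/- members, below the 83.2 CPM of the ISG-low cells of that library. The Ccl5 levels rested on few cells as well, since 1 WT member held 282 of 739 Ccl5 UMIs and 1 sGSN-/-Clec9a-/- member 92 of 167. By cells with a UMI, sGSN-/- had the highest share, 35.6% of members against 18.9% in WT and 24.6% in sGSN-/-Clec9a-/-. NK gene barcodes held Ccl5 in 78.1% of cells. Among chemokines of neutrophils and monocytes, Cxcl2 was at 2038 ± 220 against 2174 ± 117 CPM, Ccl2 at 419 ± 105 against 279 ± 20.8 CPM, and Ccl12 at 112, 26.9 and 63.3 CPM against 13.4, 6.54 and 10, higher in members of each library. Ccl17, a ligand of CCR4, was lower in members of all 3 libraries, at 73.3, 16.5 and 11.4 CPM against 101, 144 and 115.

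Cxcl10 was carried by many members and Cxcl9 by few. Cxcl10 was found in 179 of 268 members (66.8%, 60.8 to 72.4), 11.5% of ISG-low cells and 17.5% of NK gene barcodes, at median depths of 14564, 12577 and 8722 UMIs. Cxcl9 was found in 40 members (14.9%, 10.9 to 19.8), 2.87% of ISG-low cells and 2.01% of NK gene barcodes. Of the 40 members with Cxcl9, 34 also held Cxcl10, while 145 held Cxcl10 alone and 83 neither. Among the 126 cDC1s past the threshold the balance was another: 64 (50.8%) held Cxcl9, 44 (34.9%) held Cxcl10, and 29 held Cxcl9 alone. Within members the UMIs were concentrated, since the 10% of members with the most held 59.3% of Cxcl10 UMIs and 98.6% of Cxcl9 UMIs. A single member held 355 UMIs of Cxcl10, and another 287 of Cxcl9.

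Antigen presentation genes differed less. All 12 genes of MHC class I presentation had higher means in members, 11 in every library, but only Tap1, a subunit of the peptide transporter, exceeded 2-fold (200, 187 and 181 CPM against 74.3, 81.5 and 73.7). Its lowest member library was above its highest ISG-low library. The light chain B2m was 1.45-fold higher, and the heavy chain H2-K1 was at 1190 ± 92.2 against 1035 ± 28.0 CPM. MHC class II genes had a median log2 ratio of 0.10, and H2-Aa was at 7994 ± 577 against 7421 ± 373 CPM.

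Of 11 genes of costimulation, checkpoints and death ligands, 7 had 10 CPM or more in either group, and 6 of these 7 were higher in members of every library. Cd40, the receptor through which helper T cells license dendritic cells, was at 128, 91.0 and 111 CPM against 25.3, 31.2 and 27 (3.95-fold). Cd274, which encodes the checkpoint ligand PD-L1, was at 33.8, 34.7 and 44.6 CPM against 12, 15.7 and 14.1 (2.70-fold). Neither gene overlapped between the groups. Il15, a cytokine that sustains NK and memory T cells, was 5.22-fold higher, and Tnfsf10, the death ligand TRAIL, had few counts in ISG-low cells, at 25.8 ± 4.54 against 0.973 ± 0.270 CPM. Cd80, a ligand of CD28, was lower in members of all 3 libraries (46.4 ± 3.16 against 56.0 ± 3.92 CPM), and its relative Cd86 was at 235 ± 2.85 against 187 ± 11.2 CPM. Fcgr1, a high-affinity antibody receptor listed among the monocyte markers, was at 374, 320 and 327 CPM against 90.9, 80.8 and 93.0 (3.86-fold).

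Of 6 cytokines and effector enzymes with 10 CPM or more, 5 had a higher mean in members, 2 of them in every library. Il1b was at 3264 ± 64.9 against 3504 ± 373 CPM, and Il18, whose product needs inflammasome cleavage, at 26.6 ± 7.28 against 13 ± 0.787 CPM. Tnf was at 49.8, 106 and 93.4 CPM against 47.2, 53.7 and 51.4, so WT members lay within the ISG-low range. Il6 was found in 32 members (11.9%), 4.93% of ISG-low cells and 0.387% of NK gene barcodes.

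**Figure D3:**
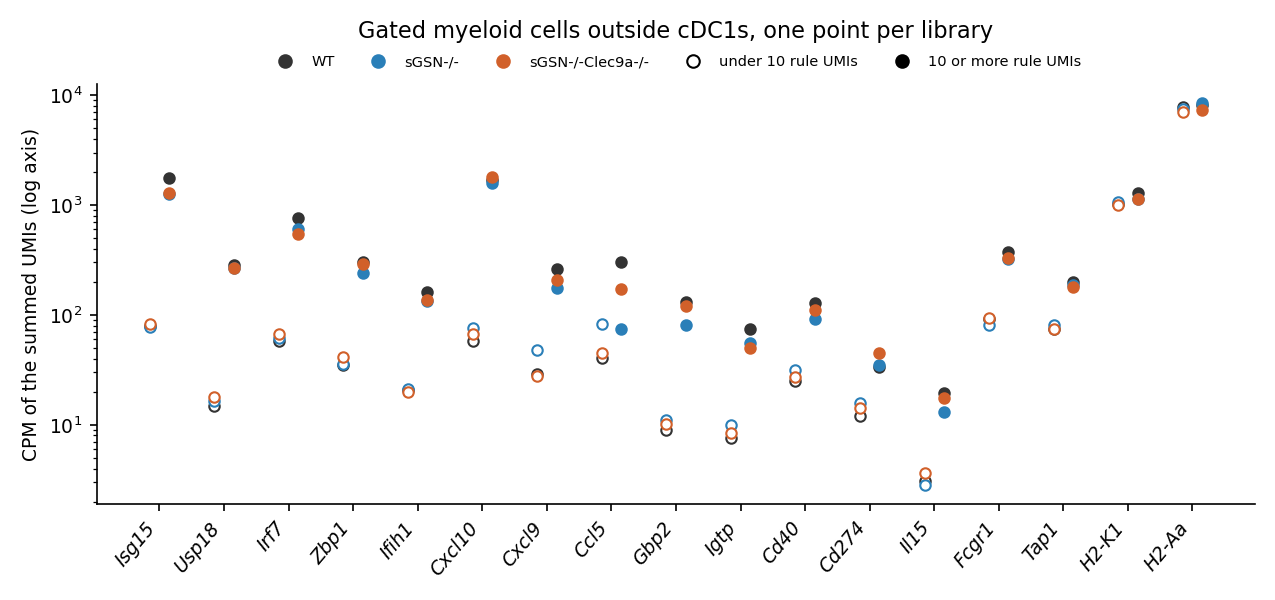
Level (CPM, log axis) of 17 genes in each library, with open symbols for ISG-low and filled symbols for ISG-high gated myeloid cells. Isg15, Cxcl10 and Gbp2 were higher in all 3 member libraries than in any ISG-low library, while H2-Aa was at 7994 ± 577 against 7421 ± 373 CPM.

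The largest ratios outside the rule genes were sought among 2763 genes with 50 CPM or more in either group. The highest 10 were Ifit3b (114-fold), Ifit1bl1 (93.0), Cmpk2, Oasl1, Cxcl10, Isg15, Ifi206 (18.1), Usp18, Ifi213 (16.1) and Slfn1 (15.4), and each was higher in all 3 libraries. Ifit3b and Ifit1bl1 are close relatives of the rule genes, and Ifi206 and Ifi213 belong to the p200 family. The lowest 10 were Siglech (0.238-fold), Ccl17 (0.281), Cd7 (0.478), Gcsh (0.50), Mt2 (0.501), Dpep2 (0.508), Pxdc1 (0.525), Fam107b (0.556), Cd209d (0.573) and Fabp5 (0.587). All but Cd209d, at 71.2 CPM in WT members against 67.1, were lower in the 3 libraries. The libraries were uneven for Siglech, at 30.9 CPM against 40.0 in WT, 6.93 against 89.1 in sGSN-/- and 4.15 against 47.5 in sGSN-/-Clec9a-/-. Its log2 ratio of -2.04 was -3.51 without WT and -1.30 without sGSN-/-, and that of Ccl17, -1.81, was -3.17 without WT. Siglech and Cd7 mark plasmacytoid cells and pre-cDCs, and the 4 pre-cDC markers summed to 142 CPM in members and 295 CPM in ISG-low cells.

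Promoter sequences were searched for the letters of the elements that interferon-activated factors bind, since the rule genes and Cxcl10 were high together. The motifs were the ISRE core GAAANNGAA and the GAS core TTCNNNGAA, both read on both strands, in RefSeq promoters of build GRCm38.p6 from 250 bases before to 50 after each gene start. Of all 32851 promoters, 8.56% held the ISRE core and 8.30% the GAS core. Of the 5 promoters of the 4 rule genes, 3 (60.0%) held the ISRE core and 1 the GAS core. Promoters were given for 21 of the 26 listed antiviral effectors, and 15 of their 25 promoters (60.0%) held the ISRE core and 5 the GAS core. For chemokines it was 3 of 9 (33.3%) and 1 of 9. Promoters of 2 rule genes, of Isg15, and of the CXCR3 ligands Cxcl10 and Cxcl9 are shown because these genes define the members or rank among their most abundant interferon-induced genes, or, for Cxcl9, because members and cDC1s carried it unequally. Capitals mark ISRE core matches, and none of these 5 windows held a GAS match. A match is a description of the letters and not a measured binding site, and the absence of a match does not show that a site is absent. All windows shown held an ISRE core match, but the promoters of the rule gene Ifit2, of Cmpk2 and of Oasl1 held none. The rule gene Ifit1, not shown, held 3 matches. Ifit3 (chr19:34583279-34583578, plus strand) held 3 matches and Rsad2 (chr12:26456403-26456702, minus strand) 1. Isg15 (chr4:156200769-156201068, minus strand) held 3, the middle one overlapping both others. Cxcl10 (chr5:92348840-92349139, minus strand) held 1 and Cxcl9 (chr5:92328030-92328329, minus strand) 1.
Ifit3: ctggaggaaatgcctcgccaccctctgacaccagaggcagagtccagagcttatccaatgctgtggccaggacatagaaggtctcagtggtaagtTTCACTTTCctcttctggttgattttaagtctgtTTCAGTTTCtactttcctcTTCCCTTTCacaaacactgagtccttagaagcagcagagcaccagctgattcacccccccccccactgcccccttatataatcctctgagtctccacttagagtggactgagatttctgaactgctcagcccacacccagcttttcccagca
Rsad2: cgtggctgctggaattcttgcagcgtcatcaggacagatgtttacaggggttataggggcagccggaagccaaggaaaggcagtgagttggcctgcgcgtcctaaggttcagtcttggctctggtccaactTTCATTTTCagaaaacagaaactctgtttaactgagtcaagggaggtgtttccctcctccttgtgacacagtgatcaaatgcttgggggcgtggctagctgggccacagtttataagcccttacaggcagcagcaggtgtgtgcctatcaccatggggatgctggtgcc
Isg15: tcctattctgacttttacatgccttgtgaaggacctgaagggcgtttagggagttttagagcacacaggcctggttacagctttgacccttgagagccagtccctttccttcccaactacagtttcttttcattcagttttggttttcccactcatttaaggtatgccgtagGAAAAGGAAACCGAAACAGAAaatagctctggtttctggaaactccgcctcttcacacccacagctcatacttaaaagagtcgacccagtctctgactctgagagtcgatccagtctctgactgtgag
Cxcl10: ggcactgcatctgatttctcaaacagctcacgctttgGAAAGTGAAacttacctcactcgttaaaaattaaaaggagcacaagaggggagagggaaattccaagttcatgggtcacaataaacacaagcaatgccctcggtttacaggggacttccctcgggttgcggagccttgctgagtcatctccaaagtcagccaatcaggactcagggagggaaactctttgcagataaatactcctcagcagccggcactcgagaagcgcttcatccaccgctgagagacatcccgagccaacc
Cxcl9: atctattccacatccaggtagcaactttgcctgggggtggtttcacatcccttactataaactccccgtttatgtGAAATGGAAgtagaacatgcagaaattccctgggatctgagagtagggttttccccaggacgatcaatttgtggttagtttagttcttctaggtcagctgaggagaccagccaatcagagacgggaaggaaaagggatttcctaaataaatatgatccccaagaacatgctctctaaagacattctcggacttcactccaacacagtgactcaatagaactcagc

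Whether the same threshold of rule UMIs went with the same genes in another lineage was tested by the interaction of ISG level with lineage. The interaction was the log2 difference between ISG-high and ISG-low gated myeloid cells, minus that between ISG-high and ISG-low cDC1s. Median rule UMIs were 22 in members and 19.5 in ISG-high cDC1s. The 126 ISG-high and 4783 ISG-low cDC1s had passed the steps given above for cDC1s, and 110 of the 126 belonged to deposited cluster 7. Sums of UMIs per library were compared over 11764 genes by edgeR quasi-likelihood with Benjamini-Hochberg adjustment, and the genes that chose the cells were left out. The 3 libraries, each of another genotype, served as the replicates, so an effect of genotype on an interaction cannot be told apart from library spread in its SE and p. Larger and smaller refer to the signed log2 difference, so a gene that was lower in ISG-high than in ISG-low cDC1s and level in myeloid cells counts as larger in myeloid cells. The difference was larger in myeloid cells for 102 genes (0.867%) and smaller for 122 (1.04%). Of 125 tested genes on the lists, 18 were larger and 10 smaller, and their median was 0.19 against 0.12 for all genes.

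By list, 5 of 24 antiviral effectors were larger in myeloid cells and 3 smaller, and 2 of 13 sensors were larger and 2 smaller. Of 12 transcription factors, 3 were larger and 1 smaller, and of 6 feedback genes 2 were larger. Ifngr1 was the 1 gene called of 5 ligands and receptors. Of 14 interferon gamma GTPases, 1 was called, smaller, and their median was -0.28. In antigen presentation, 2 of 12 class I genes were larger, and the 6 class II genes had a median of 0.18. Of 10 costimulatory genes, 2 were smaller (median -0.38), and of 10 cytokines and enzymes 1 was larger and 1 smaller.

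Ifi205, of the DNA-binding p200 family, was at 284, 243 and 174 CPM in members and 20.3, 27.4 and 20.3 CPM in ISG-low myeloid cells, and at 1349, 1352 and 1108 CPM and 516, 561 and 474 CPM in ISG-high and ISG-low cDC1s. The cDC1s were thus high at either ISG level, and members stayed below both cDC1 classes in every library. The interaction was 2.18 ± 0.18 (log2, SE; adjusted p = 1.16e-06). Ifi211, of the same family (2.34 ± 0.15, adjusted p = 2.03e-08), and Phf11a, a PHD finger gene (1.72 ± 0.11, adjusted p = 2.03e-08), also had the larger difference in myeloid cells and the higher level in cDC1s at either ISG level. Of the family members named above, Ifi204 (0.09, adjusted p = 0.776), Ifi206 (-0.98, adjusted p = 0.155) and Ifi213 (0.06, adjusted p = 0.916) were not called. Tlr3, the endosomal sensor of double-stranded RNA that marks cDC1s, was at 33.4 ± 2.15 and 7.97 ± 0.135 CPM in ISG-high and ISG-low myeloid cells and 240 ± 48.7 and 171 ± 10.9 CPM in cDC1s (1.65 ± 0.20, adjusted p = 0.000107). Tap1 was at 189 ± 9.77 and 76.5 ± 4.34 against 293 ± 31.9 and 221 ± 7.01 CPM (0.98 ± 0.11, adjusted p = 4.17e-05). Each of these 5 genes had the larger difference in myeloid cells in 3 of 3 libraries and was called under all 13 alternatives. So were Ccr2, the receptor for Ccl2, the secreted fibrinogen-like gene Fgl2 and Phf11b; the last 2 were chosen after their values were seen. For Ccr2 the difference lay in cDC1s, at 166 ± 23.3 CPM in ISG-high and 286 ± 9.01 CPM in ISG-low cDC1s, while the myeloid classes were at 607 ± 19.3 and 614 ± 4.74 CPM.

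Of 13 chemokines, 2 were called, both larger, at a list median of 1.0. Cxcl10 had a 25.3-fold difference in myeloid cells and a 12.3-fold difference in cDC1s, where it was at 346, 492 and 660 CPM in ISG-high and 37, 36.3 and 48.7 CPM in ISG-low cells. Members were above ISG-high cDC1s in every library. The cDC1 levels rested on few cells: 15, 16 and 13 ISG-high cDC1s of the 3 libraries held Cxcl10. In each library 1 cell held 79 of 226, 126 of 386 and 122 of 397 of these UMIs. The 10% of ISG-high cDC1s with the most held 82.8%. The Cxcl10 interaction was 1.12 ± 0.24 (adjusted p = 0.0177, larger in 3 of 3 libraries), with an adjusted p of 0.127 without WT and 0.0754 without sGSN-/-. Ccl2, which recruits monocytes, had an interaction of 1.62 ± 0.25 (adjusted p = 0.00146, 3 of 3 libraries). It was at 79.2 ± 23.8 CPM in ISG-high and 161 ± 14.1 CPM in ISG-low cDC1s, and at 419 ± 105 and 279 ± 20.8 CPM in the myeloid classes, so the 2 differences had opposite signs. The Ccl2 call held when any 1 library was left out, but not under all 13 alternatives. Cxcl9 was at 1396, 689 and 929 CPM in ISG-high cDC1s, above members in every library, and was not called (-0.56, adjusted p = 0.412).

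Stat2 (0.78, adjusted p = 0.00959) and the feedback gene Usp18 (0.58, adjusted p = 0.0471) had a larger difference in myeloid cells, each in 3 of 3 libraries. In cDC1s both genes were higher at either ISG level; Stat2 was at 230 ± 48.8 and 74.2 ± 6.73 CPM there, against 117 ± 15.3 and 23.4 ± 1.04 CPM in myeloid cells. Neither call held when any 1 library was left out. The adjusted p of Stat2 was 0.147 without WT, 0.0602 without sGSN-/- and 0.0919 without sGSN-/-Clec9a-/-, and that of Usp18 0.325, 0.0879 and 0.163. Without TMM factors, Usp18 (adjusted p = 0.0777) was not called, nor with DESeq2 (adjusted p = 0.0526).

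The RNA sensor gene Ddx58 and the costimulatory gene Cd40 had a smaller difference in myeloid cells. Ddx58 was at 59.2 ± 12.2 CPM in ISG-high and 2.64 ± 0.344 CPM in ISG-low cDC1s, a 22.4-fold difference against 8.03-fold in myeloid cells, and its interaction was -1.44 ± 0.21 (adjusted p = 0.00102, smaller in 3 of 3 libraries; 0.0521 without sGSN-/-). Cd40 was at 130 ± 10.2 and 14.6 ± 1.22 CPM in ISG-high and ISG-low cDC1s, and its interaction was -1.08 ± 0.17 (adjusted p = 0.0021, 3 of 3 libraries; 0.0535 without sGSN-/-). Members and ISG-high cDC1s thus had similar Cd40 levels, and the ISG-low classes differed. Fcgr1 was at 159, 117 and 101 CPM in ISG-high and 7.39, 7.51 and 7.94 CPM in ISG-low cDC1s, a 16.5-fold difference against 3.86-fold in myeloid cells (-2.03 ± 0.17, adjusted p = 1.16e-06, 3 of 3 libraries). Cd69, which holds cells in tissue, was at 138 ± 43.0 and 10.5 ± 0.512 CPM in cDC1s and 153 ± 22.7 and 54.4 ± 6.88 CPM in myeloid cells (-2.17 ± 0.21, adjusted p = 5.52e-06, 3 of 3 libraries); it was chosen after its values were seen. Fcgr1 and Cd69 were called under all 13 alternatives, as was Tcf4 (-1.62, adjusted p = 0.00184). Il6 was also smaller (-2.46, adjusted p = 0.00496; 0.14 without WT and 0.0888 without sGSN-/-).

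**Figure D4:**
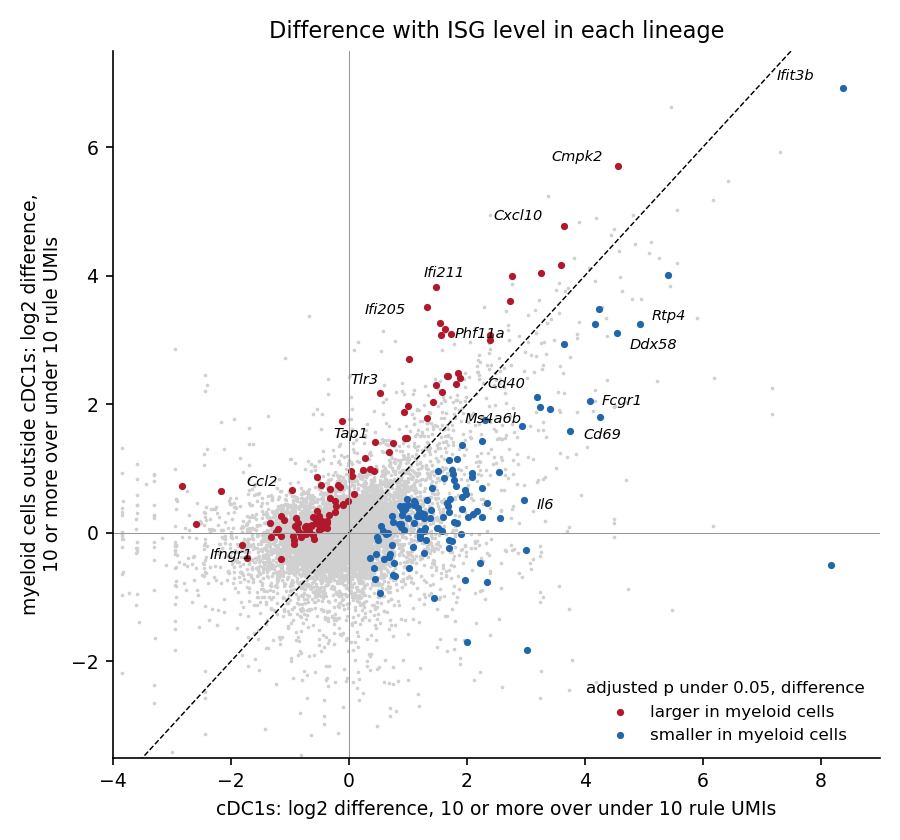
Log2 difference between ISG-high and ISG-low cells in cDC1s (horizontal axis) and in gated myeloid cells (vertical axis), 1 point per gene, with genes called larger in myeloid cells in red (102) and smaller in blue (122). Of 11764 genes, 463 lay outside the axes, 1 of them called (Scx); Cxcl10 and Ifi205 lie above the diagonal, and Fcgr1 and Cd69 below it.

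These counts rested on all 3 libraries. Without WT they were 19 larger and 42 smaller, without sGSN-/- 28 and 25, and without sGSN-/-Clec9a-/- 32 and 81. Of the 28 called list genes, 8, 6 and 12 were still called. With library as a block, which pairs the sums that come from the same pool, they were 177 and 164. Larger calls were 45.5% of all calls at a median of 0.12 over all genes, 31.6% at 0.05 without TMM factors, and 28.6% at 1.28e-05 with DESeq2. DESeq2, which differs in its test as well as in its size factors, called 123 larger and 307 smaller. In Cd209a/Flt3 myeloid cells alone, an alternative chosen after seeing the data, 28 genes were larger and 107 smaller. Of the called genes, 7 were under 10 CPM in all 4 classes. Scx had 0 UMIs in members and Slc32a1 0 in ISG-low cDC1s, so their fitted values of -8.84 and -8.66 are no bounds.

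Within the members, Isg15 and Cxcl10 were high in both C1q cells and Cd209a/Flt3 cells. Isg15 was at 1477, 1062 and 997 CPM in C1q members and 1931, 1307 and 1317 CPM in Cd209a/Flt3 members, so C1q members were lower in each library. Cxcl10 was at 1599 ± 278 and 1892 ± 229 CPM, and the libraries of the groups overlapped. Cxcl2 and Ccl2, chemokines of neutrophils and of monocytes, were higher in C1q members of every library, at 3403 against 867 CPM and 638 against 96.7 CPM.

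The interaction of ISG level with these subsets was tested in the same way over 10422 genes. It was larger in C1q cells for 4 genes (0.0384%) and smaller for 8 (0.0768%). None of the 123 tested list genes was called by edgeR, and their median was -0.0025 against 0.01 for all genes; at an unadjusted p under 0.05, 452 genes were larger and 370 smaller, and DESeq2 called 21 and 37. Plac8, a gene of monocytes, was at 491 ± 125 CPM in ISG-high and 110 ± 26.7 CPM in ISG-low C1q cells, and 970 ± 141 and 813 ± 196 CPM in Cd209a/Flt3 cells (1.81 ± 0.27, adjusted p = 0.0153, larger in 3 of 3 libraries; 0.0744 without sGSN-/-Clec9a-/-). The cDC1 markers Cadm1 (4.03, adjusted p = 0.0437) and Wdfy4 (1.20, adjusted p = 0.0437) were larger in C1q cells in 3 of 3 libraries, in the subset where 9.20% of members were among the top doublet scores; without those barcodes the counts were 1 and 4, and neither gene was called (adjusted p = 0.168 for Cadm1 and 0.322 for Wdfy4). Cadm1 also had only 2 UMIs in ISG-high Cd209a/Flt3 cells. Without any 1 library neither gene was called, with adjusted p of 0.451, 0.427 and 0.14 for Cadm1 and 0.435, 0.727 and 0.065 for Wdfy4 without WT, sGSN-/- and sGSN-/-Clec9a-/-.

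Spp1, which encodes osteopontin, was at 227 ± 17.8 CPM in ISG-high and 601 ± 14.8 CPM in ISG-low C1q cells, and 61.7 ± 28.9 and 57.4 ± 6.0 CPM in Cd209a/Flt3 cells. Its interaction was -1.55 ± 0.25 (adjusted p = 0.0153, smaller in 3 of 3 libraries), with an adjusted p of 0.36 without WT and 0.292 without sGSN-/-. Slfn2, of the interferon-inducible Schlafen family, was at 485 ± 76.8 and 224 ± 14.5 CPM in C1q cells and 771 ± 63.9 and 192 ± 5.01 CPM in Cd209a/Flt3 cells. Its interaction was -0.91 ± 0.14 (adjusted p = 0.0153, smaller in 3 of 3 libraries; 0.427 without sGSN-/- and 0.0784 without sGSN-/-Clec9a-/-). Fcgr1 was also smaller in C1q cells (-1.03, adjusted p = 0.039). Its adjusted p was 0.36, 0.0698 and 0.0987 without WT, sGSN-/- and sGSN-/-Clec9a-/-, and 0.13 without the top doublet scores. The counts of larger and smaller genes were 2 and 2 without WT, 1 and 4 without sGSN-/-, 1 and 3 without sGSN-/-Clec9a-/-, and 16 and 16 with library as a block. Larger calls were 33.3% of all, and 44.4% without TMM factors.

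Comparisons of members between genotypes rest on single libraries, with no test. Of 1468 genes with 100 CPM or more in WT or sGSN-/- members, the median absolute log2 ratio was 0.12, compared with 0.14 between members of the knockout libraries (1462 genes). Retnla, which alternatively activated macrophages secrete, was at 221 CPM in WT (exact Poisson 95% interval 202 to 240, counting error only), 51.1 in sGSN-/- (38.9 to 66.0) and 710 in sGSN-/-Clec9a-/- members (657 to 765). In ISG-low cells the order was the same and the range smaller, with 263, 185 and 401 CPM. Ccl5 was at 304 CPM in WT and 73.7 CPM in sGSN-/- members, but 1 WT member held 282 of the 739 UMIs, and the share of members with a Ccl5 UMI ran the other way, 18.9% and 35.6%. In ISG-low cells its level was 40.5 and 83.2 CPM. Ccl12, a monocyte chemokine, was at 112 and 26.9 CPM in members and 13.4 and 6.54 in ISG-low cells. Tnf was higher in sGSN-/- members, at 106 CPM (87.8 to 126) against 49.8 (41.3 to 59.5), with 53.7 and 47.2 in ISG-low cells. Lpl, a lipoprotein lipase, was at 125 CPM in sGSN-/- and 70.4 in WT members, while in ISG-low cells the order was the other, at 85.4 and 98.2 CPM. From sGSN-/- to sGSN-/-Clec9a-/- members, Il1rn was at 45.1 and 136 CPM (54.6 and 68.3 in ISG-low cells) and Thbs1, a matrix glycoprotein, at 35.5 and 131 CPM (100 and 124). The heat shock gene Hspa1b was at 390 and 130 CPM (164 and 148), Smap1 at 109 and 47.7 CPM (92.8 and 65.5), and the oxidase gene Ero1l at 110 and 46.7 CPM, with the other order in ISG-low cells (78.5 and 82.6). The share of C1q cells among members also moved between these libraries, from 33.8% in WT to 42.4% in sGSN-/- and 19.7% in sGSN-/-Clec9a-/-, and its part in these values was not tested.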

How the data were processed

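The deposited matrices hold counts, raw UMIs per gene and barcode that the authors made with Cell Ranger 6.0.1 on GRCm38, and no values were transformed. The deposited barcode and feature lists and the authors' cDC1 table (library and cluster, from Seurat) hold labels, a unit recorded as other. The members and gene lists were chosen with earlier results of these data known. UMIs of each class were summed per library; CPM, their SD over 3 libraries and log2 ratios (0.5 CPM added) describe the classes. Log2 differences between ISG levels were compared between lineages and between subsets with edgeR 4.0.16 quasi-likelihood in R 4.3.3 (TMM factors, filterByExpr, Benjamini-Hochberg adjusted p under 0.05), which was also tested on simulated data. Sums of a library come from the same pool of mice per the labels, so library as a block was an alternative; deviations of the sums of a library from their class means had, across genes, a median correlation of 0.036 to 0.064 and a highest of 0.25 to 0.31 over 6 pairs of classes in the lineage comparison (genes are not independent replicates). Genes named were those on the lists and marker lists, the 8 largest and 8 smallest called interactions, the 10 largest and 10 smallest ratios with 50 CPM or more, and the 3 largest and 3 smallest genotype ratios with 100 CPM or more; others are named as chosen after their values were seen, and some genes of these lists are not reported here. Doublet scores came from Scrublet in scanpy 1.11.5; its automatic threshold called 0 in each library, so the top 6% were used (765, 490 and 556 barcodes) and kept unless stated. Other alternatives were DESeq2 1.42.0, no TMM factors, no filter, each library left out, cells thinned to 3900 UMIs, thresholds of 5 or 20 rule UMIs or 10 per 10000 UMIs, a mitochondrial share under 5%, and cells with Clec9a left out; leaving out cells with Siglech and using Cd209a/Flt3 myeloid cells alone were chosen after seeing the data. A zero share has an exact upper limit. Python 3.11.15, scipy 1.17.1, numpy 2.4.6, pandas 2.3.3 and matplotlib 3.10.9 were used.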

Additional observations from a re-analysis of the deposited data

Results flagged for a closer look

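The genes below differed between lineages or subsets in their signed log2 difference between ISG-high and ISG-low cells. Each difference was tested by the interaction term of edgeR (Benjamini-Hochberg adjusted p under 0.05), and values are log2 interactions. A positive value can come from a higher level in ISG-high cells of the first class or from a lower level in ISG-high cells of the second, and a negative value the other way. Causes were not tested.

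Between gated myeloid cells and cDC1s, the interaction was positive for listed effectors of the antiviral response: Ifi44 (1.24), Cmpk2 (1.15), Slfn1 (0.79), Trim30a (0.61) and Zbp1 (0.61). Among sensors it was positive for Ifi205 (2.18) and Tlr3 (1.65). Signalling and feedback genes with a positive interaction were Stat2 (0.78), Ifngr1 (0.75), Ciita (0.75), Socs3 (0.71) and Usp18 (0.58). Chemokines, presentation genes and cytokines with a positive interaction were Ccl2 (1.62), Cxcl10 (1.12), Tap1 (0.98), Il18 (0.89) and Psmb9 (0.52), and marker genes were Ccr2 (0.84), Lyz2 (0.82) and Naaa (0.73). Ifngr1, Ciita, Socs3, Ccr2 and Lyz2 had log2 differences of -0.40, 0.10, 0.03, 0.08 and 0.10 in myeloid cells and -1.15, -0.65, -0.68, -0.75 and -0.72 in cDC1s. Genes named for the size of the interaction were Ddx20 (3.56), Acp6 (2.82), Thap4 (2.74), Ifi211 (2.34), Kctd14 (1.86), Phf11a (1.72) and Wdr86 (1.69), and Phf11b (1.37) and Fgl2 (0.94), chosen after their values were seen, were called under every alternative. Of the genes above, so were Ifi205, Tlr3, Tap1, Ccr2, Ifi211 and Phf11a. Slfn1, Zbp1, Stat2, Ciita, Socs3, Usp18, Il18, Psmb9, Ddx20, Acp6, Thap4 and Wdr86 were not called when any 1 library was left out. Ddx20 was 8.92 without WT. Ifi44, Cmpk2, Trim30a, Ifngr1, Cxcl10, Lyz2, Naaa and Kctd14 each lost the call without at least 1 library. With DESeq2, and also without TMM factors, Zbp1, Usp18, Ddx20 and Thap4 were not called, nor was Socs3 without TMM factors. Without the top doublet scores Usp18, Ddx20 and Thap4 were not called.

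The interaction was negative for the antiviral genes Rtp4 (-1.68), Ifit3b (-1.46) and Oasl2 (-0.92), the RNA sensors Ddx58 (-1.44) and Ifih1 (-0.71), the GTPase Ifi47 (-0.76) and the transcription factor Irf1 (-0.54). It was negative for Il6 (-2.46), Cd40 (-1.08) and Cd86 (-0.45), and for the marker genes Cd7 (-2.46), Fcgr1 (-2.03) and Tcf4 (-1.62). Ifit3b, Ifih1 and Irf1 were not called when any 1 library was left out. Irf1 was also not called without the top doublet scores (adjusted p = 0.172). Rtp4, Oasl2, Ddx58, Ifi47, Il6, Cd40 and Cd86 each lost the call without at least 1 library. Fcgr1 and Tcf4 were called under every alternative, while Cd7 was -0.93 without sGSN-/- (adjusted p = 0.665) and had an adjusted p of 0.0586 without sGSN-/-Clec9a-/-. Genes called negative under every alternative, and chosen after their values were seen, also included Cd69 (-2.17), Ndrg1 (-1.80), Fnbp1l (-1.55), Atp6v1d (-1.36), Ms4a6b (-1.27), Il10ra (-1.16) and Txn1 (-0.90). Genes named for size were Scx (-8.84), Slc32a1 (-8.66), Wdr62 (-4.85), Pacsin1 (-3.70), Htra3 (-3.27), Ltc4s (-3.12), Procr (-2.70) and Asgr2 (-2.69); Scx had 0 UMIs in members and Slc32a1 in ISG-low cDC1s. Each of these 8 lost its call without at least 1 library. Without WT, Wdr62 was -3.18 (adjusted p = 0.485), Ltc4s -1.64 (0.695) and Slc32a1 -13.5 (0.142), and without sGSN-/-Clec9a-/- Wdr62 was -10.5 and Htra3 -2.53 (adjusted p = 0.137).

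Between C1q and Cd209a/Flt3 cells, the interaction was positive for Cadm1 (4.03), Plac8 (1.81), Wdfy4 (1.20) and Slamf7 (1.02). It was negative for Apoc2 (-4.32), Rnase4 (-2.68), Ctla2b (-1.99), Spp1 (-1.55), Apobec1 (-1.33), Fcgr1 (-1.03), Slfn2 (-0.91) and Rgs1 (-0.78). Spp1, Rgs1, Apoc2 and Rnase4 were lower in ISG-high C1q cells, and had higher means in ISG-high Cd209a/Flt3 cells. Of Cd209a/Flt3 cells, ISG-high ones had less Spp1 in sGSN-/-Clec9a-/- (30.8 against 63.0 CPM) and less Rgs1 in WT (517 against 574 CPM). Apoc2 and Rnase4 had 0 CPM in ISG-high Cd209a/Flt3 cells of sGSN-/-. None of these 12 genes was called under all 11 alternatives. Without the top doublet scores Cadm1, Wdfy4, Slamf7, Rgs1, Fcgr1, Apobec1 and Rnase4 were not called. Rnase4 was larger in 1 of 3 libraries, while the other 11 had the same direction in all 3.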

How the results depend on the processing

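In the lineage comparison, 17 of 224 calls (8 larger, 9 smaller in myeloid cells) held under all 13 alternatives, and no called gene was called in the opposite direction. The 102 larger and 122 smaller calls were 123 and 307 with DESeq2 and 66 and 143 without TMM factors. They were 257 and 220 without a filter, and 177 and 164 with library as a block. Leaving out 1 library gave 19 to 32 larger and 25 to 81 smaller. Counts were 39 and 13 after thinning, 58 and 75 with 10 rule UMIs per 10000 UMIs, and 66 and 166 without top doublet scores. Among alternatives chosen after seeing the data, they were 28 and 107 in Cd209a/Flt3 cells alone and 64 and 146 without Siglech cells.

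In the subset comparison, 4 larger and 8 smaller calls were 21 and 37 with DESeq2 and 4 and 5 without TMM factors. They were 59 and 47 without a filter, and 16 and 16 with the block. Leaving out 1 library gave 1 to 2 larger and 2 to 4 smaller. There were 2 and 7 after thinning, and 1 and 3 with 20 rule UMIs. Both with 10 per 10000 and without top doublet scores there were 1 and 4. None of the 12 calls held under all 11 alternatives.

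Member shares in WT, sGSN-/- and sGSN-/-Clec9a-/- were 4.30%, 4.60% and 3.83% with 5 rule UMIs, 1.58%, 1.78% and 1.30% with 20, and 1.14%, 0.953% and 0.680% after thinning. With 10 per 10000 they were 2.08%, 2.15% and 1.95%. The median log2 ratio of all listed genes, 1.51, was 2.11 after thinning and 1.40 to 1.69 without 1 library. For shares and log2 ratios after thinning, members were chosen anew on the thinned UMIs, which left 91 cells. These values thus differ in the members as well as in depth. The thinned interaction tests kept the classes set at full depth.

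Of the named lineage interactions under alternatives, 537 kept direction and call, 211 lost the call and 1 turned: Ltc4s, 3.97 after thinning. For subsets 67 kept the call and 61 lost it. Of log2 ratios between members and ISG-low cells, 1531 moved less than the spread of libraries, 239 moved more and 1 turned: Il10, -0.89 after thinning. The cause was not tested.

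The limits are few cells, 39 to 148 in each ISG-high sum of the lineage comparison and 12 to 81 in the subset comparison, pooled mice with 1 library per genotype, and a threshold on UMIs that deeper cells pass more easily. With a library left out, each class keeps 2 sums.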
